A study of Mus musculus with 4 samples.

Results

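The transcripts of 10 genes that govern passage through G1 were measured in HT-22 cells, a line of immortalized neurons that came from the mouse hippocampus. The genes are the D-type cyclins Ccnd1, Ccnd2 and Ccnd3, the kinases Cdk4 and Cdk6, the kinase inhibitors Cdkn1a and Cdkn1b, the retinoblastoma gene Rb1, the transcription factor gene E2f1, and Gas1, a growth arrest gene. They were selected by their role in G1 and with differences between these libraries already known, so their values are given as a description. All 10 were found among the 11502 gene symbols of the deposited table, as 31 of its 25889 transcripts, and all 10 averaged 1 FPKM or more (fragments scaled to the length of the transcript and the size of the library) over the libraries.

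The study asked how PGC-1α, a transcriptional coactivator that promotes mitochondrial biogenesis, alters gene expression in neurons with and without a lack of oxygen and glucose. Cells labelled wild type carried a negative control lentivirus (Ctrl), and PGC-1α-overexpressed cells carried a lentivirus with PGC-1α (PGC-1α). Both had been selected with puromycin, and neither was described as a single clone. Each kind of cell was also studied after oxygen and glucose deprivation (OGD), which lasted 2 h in medium free of serum and glucose before 24 h of recovery in normal medium (Ctrl+OGD and PGC-1α+OGD). Values below are given for Ctrl, for cells with PGC-1α, for control cells with OGD and for cells with both. Every group had 1 library of poly(A) RNA, so no difference below has a replicate check, no p-value was computed, and a difference between groups cannot be told apart from a difference between single cultures. The 2 comparisons of PGC-1α with control share no library, and neither do the 2 comparisons of OGD with no OGD, but each comparison of PGC-1α shares a library with each comparison of OGD.

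The deposited values summed to between 331892 and 353381 FPKM per library, and the number of reads behind them is unknown. Ppargc1a, the gene of PGC-1α, had 0.900 FPKM in Ctrl, 35.1 with PGC-1α, 0.103 with OGD and 8.41 with both, so that it was high in both libraries labelled PGC-1α and lower in the one with OGD. Among 15 neuron markers, Syp was the only one in the table, at 0.258 to 0.997 FPKM. No transcript of the other 14 was found there, and their levels are unknown. Of 10 fibroblast and mesenchymal markers 7 were in the table, and their summed level was 1228 FPKM in Ctrl, 1361 with PGC-1α, 1688 with OGD and 1346 with both, led by Vim, S100a4, Col1a2 and Col1a1. The neuronal origin of the line is therefore not visible in these marker genes. Summed astrocyte markers (3 of 6 in the table) ranged from 13.6 to 24.0 FPKM, oligodendrocyte markers (2 of 6) from 5.20 to 6.16 FPKM, and microglia markers (2 of 6) from 0.740 to 2.66 FPKM.

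D-type cyclins are made when growth factors act on a cell, and they bind and activate the kinases Cdk4 and Cdk6. These kinases phosphorylate the retinoblastoma protein, which then releases E2F transcription factors, and E2F turns on the genes of DNA replication. The inhibitors p21 (Cdkn1a) and p27 (Cdkn1b) hold back cyclin-dependent kinases, and p21 is a classical target of p53. Gas1 was named for its expression in growth-arrested cells, and its protein, anchored at the cell surface, also acts as a co-receptor for Hedgehog ligands. Neurons normally stay out of the cell cycle, while a cell line such as HT-22 divides in culture. At the level of whole genes, 8 of the 10 stayed within 1.5-fold in every comparison. Gas1 was lower in both libraries with OGD, and Ccnd3 was higher in Ctrl+OGD than in Ctrl. Beneath these sums, the transcripts of Ccnd3 and Gas1 separated the libraries with OGD from those without.

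Sequences of Ccnd3 and Gas1 are shown first, and their part in these patterns was not tested. Ccnd3 (ENSMUSG00000034165) lies on the plus strand of chromosome 17 from 47505051 to 47599691 of GRCm38, and its deposited transcripts with a consensus coding sequence (CCDS) begin at 2 distant sites. Ccnd3-202 and Ccnd3-215 start at 47505051 and 47505119, and Ccnd3-205 starts at 47593470, which is 88.4 kb downstream of Ccnd3-202. The 250 bases before the RefSeq start of each site (GRCm38.p6, plus strand, chr17:47504801-47505050 and chr17:47593217-47593466) are given here because the deposited values put nearly all CCDS transcripts of the gene behind the first in cells without OGD and behind the second after OGD. Capitals mark the GC box, GGGCGG on the minus strand and so its reverse complement on the strand shown.
Ccnd3 distal start: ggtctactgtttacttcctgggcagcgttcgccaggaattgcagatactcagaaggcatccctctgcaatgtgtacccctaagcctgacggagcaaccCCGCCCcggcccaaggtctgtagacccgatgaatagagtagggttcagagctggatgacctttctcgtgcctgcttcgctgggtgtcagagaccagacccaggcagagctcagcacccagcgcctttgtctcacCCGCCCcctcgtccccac
Ccnd3 proximal start: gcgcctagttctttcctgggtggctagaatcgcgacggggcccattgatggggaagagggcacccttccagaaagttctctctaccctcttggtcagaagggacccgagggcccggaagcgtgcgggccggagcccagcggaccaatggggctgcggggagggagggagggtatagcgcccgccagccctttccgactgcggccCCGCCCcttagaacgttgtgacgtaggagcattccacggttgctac

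The RefSeq proximal start, 47593467, lies 3 bases before that of Ccnd3-205. The distal window had a GC content of 59.6% and 11 CpG sites, and the proximal window 64.8% and 19 CpG sites, against medians of 52.4% and 6 CpG sites in 32851 mouse promoters of the same table. GC boxes began 152 and 18 bases before the distal start and 46 bases before the proximal start. This motif occurred on either strand in 32.7% of all promoters. The other motifs searched on both strands were the E2F sites TTTCGCGC or TTTGGCGC (in 0.654% of all promoters), the hypoxia response core ACGTG (16.6%), the cyclic AMP response element TGACGTCA (1.55%), the site TNAAGGTCA of estrogen-related receptors (1.14%) and the AP-1 site TGACTCA (4.46%). None of these motifs occurred in either Ccnd3 window, and no match overlapped another.

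Gas1 (ENSMUSG00000052957) lies on the minus strand of chromosome 13 from 60174405 to 60177365 and has 2 annotated transcripts, each of a single exon. Gas1-202 (60175787 to 60176941, 1155 bases) lies wholly inside the exon of Gas1-201 (2961 bases), with 424 bases of Gas1-201 before it and 1382 after it. Nearly all of Gas1-202 is annotated as coding, and its reading frame starts 41 codons upstream of that of Gas1-201 and in the same frame. The first 30 coding bases of each (minus strand, chr13:60176912-60176941 and chr13:60176789-60176818) are shown with the start codon in capitals, because the 2 transcripts share all bases of the shorter one and are told apart only by where they start and end.
Gas1-202: ATGgatgaggacgcccatgccagaagtgcg
Gas1-201: ATGctagccgcgctgctgggcggcgccggg

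The D-type cyclins were the most abundant of the classes that make up the kinase complexes. Ccnd1 (ENSMUSG00000070348, chromosome 7, 144929931 to 144939925, minus strand), the cyclin most often tied to mitogen signals, had 91.3 FPKM in Ctrl, 84.8 with PGC-1α, 92.9 with OGD and 79.4 with both, all from a single deposited transcript. It was the highest of the 10 genes in every library. The differences of log2(FPKM + 1), on which all fold changes here were computed, were -0.10 for PGC-1α vs Ctrl and, after OGD, -0.23 for PGC-1α+OGD vs Ctrl+OGD, so both libraries with PGC-1α lay slightly below their controls. With OGD it differed by 0.03 in control cells and by -0.09 in PGC-1α cells. None of these reached 1.5-fold.

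Ccnd2 (ENSMUSG00000000184, chromosome 6, 127125162 to 127152193, minus strand), a D-type cyclin prominent in proliferating neural precursors, had the narrowest range of the 10 genes, 0.17 on the log2 scale. Its level was 27.4 FPKM in Ctrl, 30.9 with PGC-1α, 29.97 with OGD and 29.99 with both. Between 94.2% and 96.7% of this came from Ccnd2-201, a transcript of 6330 bases, and the other 2 deposited transcripts had at most 1.03 FPKM.

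Ccnd3, the third D-type cyclin, had 35.6 FPKM in Ctrl, 51.6 with PGC-1α, 65.3 with OGD and 57.5 with both when its 9 deposited transcripts were summed. The Ctrl library was the lowest and the other 3 lay closer together. The difference was 0.85 on the log2 scale for Ctrl+OGD vs Ctrl, the 251st highest of 10604 genes compared, and 0.52 for PGC-1α vs Ctrl, the 669th highest and just under 1.5-fold. The remaining differences were smaller, at -0.18 for PGC-1α+OGD vs Ctrl+OGD and 0.15 for PGC-1α+OGD vs PGC-1α. The PGC-1α difference with OGD minus that without was -0.70, the largest in size of the 10 genes, and was not tested. In a bulk library, more cells with a transcript and more of it per cell cannot be told apart.

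**Figure D1:**
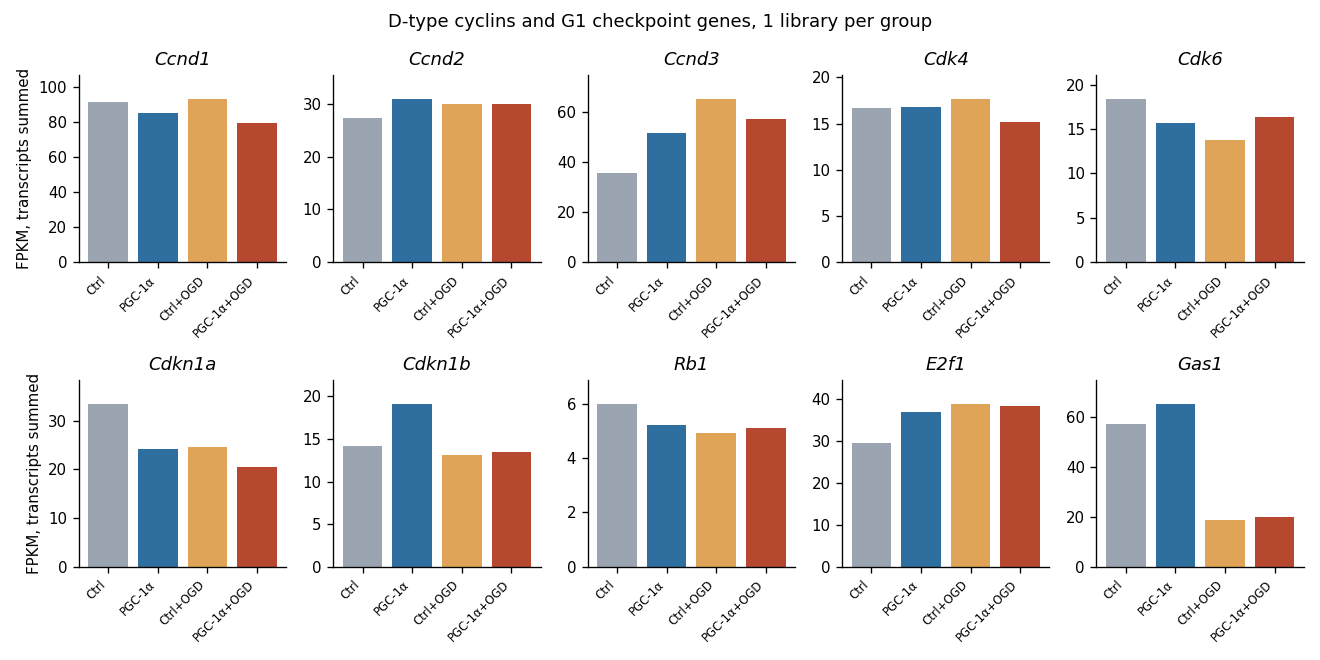
Level of each of the 10 genes (FPKM, deposited transcripts summed) in the 4 libraries, 1 bar per library and no error bars because each group has 1 library, with an axis from 0 in every panel. Gas1 stands at 57.2 and 65.1 FPKM without OGD and at 18.7 and 20.03 FPKM with it, Ccnd3 is lowest in Ctrl, and Ccnd1, Ccnd2 and Cdk4 are nearly level.

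The sum of Ccnd3 hid an exchange of its leading transcripts. Ccnd3-202 had 1.34 FPKM in Ctrl, 37.0 with PGC-1α, 0.004 with OGD and 0.009 with both. Ccnd3-215 had 21.9, 9.09, 0.002 and 0 FPKM in the same order. Together these transcripts of the distal start made up 65.2% of the Ccnd3 sum in Ctrl, 89.3% with PGC-1α, 0.0094% with OGD and 0.0162% with both. The distal class was thus high in the libraries without OGD and close to 0 in those with it.

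Ccnd3-205, which begins at the proximal start, showed the converse. It had 1.09 FPKM in Ctrl, 0.806 with PGC-1α, 58.7 with OGD and 49.6 with both, or 3.05%, 1.56%, 89.9% and 86.2% of the sum. Within the distal class the deposited values also differed, since Ccnd3-215 led in Ctrl and Ccnd3-202 led in PGC-1α. These transcripts share 2045 bases, of 2113 in Ccnd3-202 and 2064 in Ccnd3-215. The split between them thus rests on few bases and was not tested. The remaining 6 deposited transcripts carry no CCDS and summed to 11.3, 4.71, 6.61 and 7.93 FPKM, of which Ccnd3-221 held 7.48 FPKM in Ctrl and between 2.83 and 3.26 FPKM elsewhere.

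All 3 CCDS transcripts share the same coding sequence of 876 bases, so the exchange does not alter the annotated protein. They share most of their exons too. Of the 1977 bases of Ccnd3-205, 145 occur in neither distal transcript, while 281 bases of Ccnd3-202 and 232 bases of Ccnd3-215 are outside Ccnd3-205. The values of the start classes rest on fragments over these short stretches, whose number is not known, and the part that the division of shared fragments among transcripts played was not tested. Counting only the CCDS transcripts, Ccnd3 had 24.3 FPKM in Ctrl, 46.9 with PGC-1α, 58.7 with OGD and 49.6 with both, and PGC-1α vs Ctrl then passed 1.5-fold, with a log2 difference of 0.92. It passed as well, at 0.82, when FPKM was multiplied by transcript length in kb and summed as length-weighted FPKM, a reading that weighs transcripts by their fragments (57.0 in Ctrl, 101 with PGC-1α, 120 with OGD and 103 with both). Both readings were chosen after the data were seen. Over all genes, 599 and 656 were higher in PGC-1α vs Ctrl in these readings, where the sums gave 521.

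**Figure D2:**
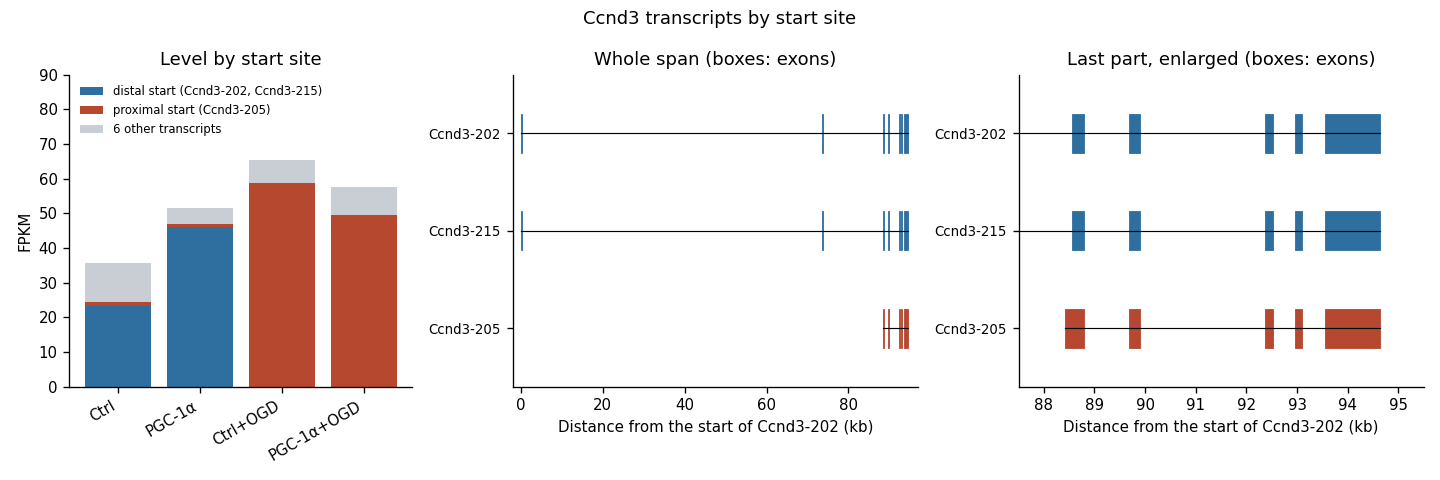
Left, Ccnd3 level (FPKM) in the 4 libraries, stacked by start site; middle and right, exons of the 3 CCDS transcripts against distance from the start of Ccnd3-202 (kb), over the whole span and enlarged over the last part. The distal class fills 65.2% and 89.3% of the bar in Ctrl and PGC-1α and is not visible in the OGD libraries, where Ccnd3-205 fills 89.9% and 86.2%.

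As a class the D-type cyclins summed to 154 FPKM in Ctrl, 167 with PGC-1α, 188 with OGD and 167 with both. Ccnd3 gave 23.1% of this sum in Ctrl and 30.8%, 34.7% and 34.5% in the others. Ccnd1 gave 59.2% in Ctrl and from 47.6% to 50.7% elsewhere. The make-up of the class in Ctrl thus differed from the other 3 libraries mainly through Ccnd3.

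The partner kinases were lower and varied little. Cdk4 (ENSMUSG00000006728, chromosome 10, 127063534 to 127067920, plus strand) had 16.7 FPKM in Ctrl, 16.8 with PGC-1α, 17.6 with OGD and 15.2 with both, and its longest transcript, Cdk4-201, held between 82.8% and 91.1% of the sum. Cdk6 (ENSMUSG00000040274, chromosome 5, 3341485 to 3531008, plus strand) had 18.4 FPKM in Ctrl, 15.7 with PGC-1α, 13.8 with OGD and 16.4 with both. Cdk6 was lowest in Ctrl+OGD, and its log2 difference was -0.39 for Ctrl+OGD vs Ctrl but 0.06 for PGC-1α+OGD vs PGC-1α. Cdk6-202, at 9.24 to 11.6 FPKM, led in every library. The ratio of summed D-type cyclins to summed Cdk4 and Cdk6 was 4.41 in Ctrl, 5.15 with PGC-1α, 5.99 with OGD and 5.28 with both.

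Of the inhibitors, Cdkn1a (ENSMUSG00000023067, chromosome 17, 29090976 to 29100727, plus strand) had 33.4 FPKM in Ctrl, 24.2 with PGC-1α, 24.5 with OGD and 20.5 with both. Ctrl was the highest and PGC-1α+OGD the lowest. All 4 of its log2 differences were negative, at -0.45 for PGC-1α vs Ctrl, -0.25 for PGC-1α+OGD vs Ctrl+OGD, -0.43 for Ctrl+OGD vs Ctrl and lastly -0.23 for PGC-1α+OGD vs PGC-1α, and none reached 1.5-fold. The main transcript, Cdkn1a-201, followed the same order of libraries for its extremes, with 27.8 FPKM in Ctrl and 17.9 in PGC-1α+OGD. Cdkn1a-202, which has the same coding length but an upstream start, was listed at 0 in PGC-1α and had 5.01 FPKM in Ctrl, 2.68 with OGD and 2.50 with both.

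Cdkn1b (ENSMUSG00000003031, chromosome 6, 134920401 to 134925513, plus strand) had 14.2 FPKM in Ctrl, 19.1 with PGC-1α, 13.1 with OGD and 13.5 with both. It was highest in PGC-1α, with log2 differences of 0.41 against Ctrl and, for PGC-1α+OGD vs PGC-1α, -0.48. Its transcripts, which share a coding sequence of 591 bases, varied more than the sum. Cdkn1b-203 had 4.73 FPKM in Ctrl and 3.802 in Ctrl+OGD and was listed at 0 in both libraries with PGC-1α. Cdkn1b-201 had 2.55 FPKM in Ctrl, 12.1 with PGC-1α, 3.53 with OGD and 4.08 with both, so that it stood out in PGC-1α alone. Cdkn1b-202 had 6.89, 7.02, 5.80 and 9.38 FPKM in the same order.

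Both inhibitors together had 47.6 FPKM in Ctrl, 43.4 with PGC-1α, 37.6 with OGD and 33.9 with both. The ratio of D-type cyclins to these inhibitors was 3.24 in Ctrl, 3.86 with PGC-1α, 5.00 with OGD and 4.92 with both, higher in both libraries with OGD than in those without. These ratios are of transcript levels, and the proteins, whose amounts are also set by degradation, were not measured here.

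Rb1 (ENSMUSG00000022105, chromosome 14, 73183673 to 73325822, minus strand), the gene of the protein that Cdk4 and Cdk6 phosphorylate, was the lowest of the 10 genes in every library. It had 5.99 FPKM in Ctrl, 5.22 with PGC-1α, 4.92 with OGD and 5.11 with both from a single deposited transcript. E2f1 (ENSMUSG00000027490, chromosome 2, 154559407 to 154569892, minus strand), an activator of replication genes and itself induced as cells leave G1, had 29.5 FPKM in Ctrl, 36.8 with PGC-1α, 38.8 with OGD and 38.4 with both. As for Ccnd3, Ctrl was the lowest library and the other 3 lay close together. The log2 differences of E2f1 were 0.31 for PGC-1α vs Ctrl and 0.38 for Ctrl+OGD vs Ctrl, against -0.01 for PGC-1α+OGD vs Ctrl+OGD and 0.06 for PGC-1α+OGD vs PGC-1α.

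Its 2 transcripts differ in coding length, 1155 bases for E2f1-201 and 1290 for E2f1-202. E2f1-202 had 28.8 FPKM in PGC-1α and between 16.5 and 18.95 FPKM in the other libraries. E2f1-201 had 13.05 FPKM in Ctrl, 8.08 with PGC-1α, 19.8 with OGD and 19.5 with both. The longer coding form therefore made up 78.1% of the sum in PGC-1α, 55.8% in Ctrl, 48.9% with OGD and 49.1% with both.

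Gas1 had the widest range of the 10 genes, 1.75 on the log2 scale. Its summed level was 57.2 FPKM in Ctrl, 65.1 with PGC-1α, 18.7 with OGD and 20.03 with both. Both libraries without OGD were high and both with OGD were low, whichever lentivirus the cells carried. The log2 difference was -1.57 for Ctrl+OGD vs Ctrl, the 66th lowest of 10604 genes, and -1.65 for PGC-1α+OGD vs PGC-1α, the 38th lowest. With PGC-1α it differed by 0.18 without OGD and by 0.10 after OGD. Gas1 went from the second highest of the 10 genes in Ctrl and PGC-1α to the 6th in the OGD libraries.

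In the deposited values, nearly all of this difference lay in Gas1-202. That transcript has no bases outside Gas1-201, so the split between them rests on how shared fragments were divided. The number of those fragments is not known, and the part that their division played was not tested. Gas1-201 had 18.5 FPKM in Ctrl, 20.2 with PGC-1α, 18.3 with OGD and 19.6 with both. Gas1-202 had 38.7, 44.9, 0.396 and 0.473 FPKM in the same order, which is 67.6%, 69.0%, 2.12% and 2.36% of the gene. The longer transcript was nearly level across the 4 libraries, and the shorter one was near 0 after OGD. Because the shorter transcript counts for more per fragment, the size of the change depends on the scale. As length-weighted FPKM, Gas1-201 had 54.9, 59.9, 54.1 and 57.9 and Gas1-202 had 44.7, 51.9, 0.457 and 0.546 in the same order. Summed over both transcripts, the level with OGD was 0.326 of that without OGD in control cells and 0.307 of it in PGC-1α cells in FPKM, and 0.548 and 0.523 of it in length-weighted FPKM, so Gas1 was lower by more than 1.5-fold on either scale.

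**Figure D3:**
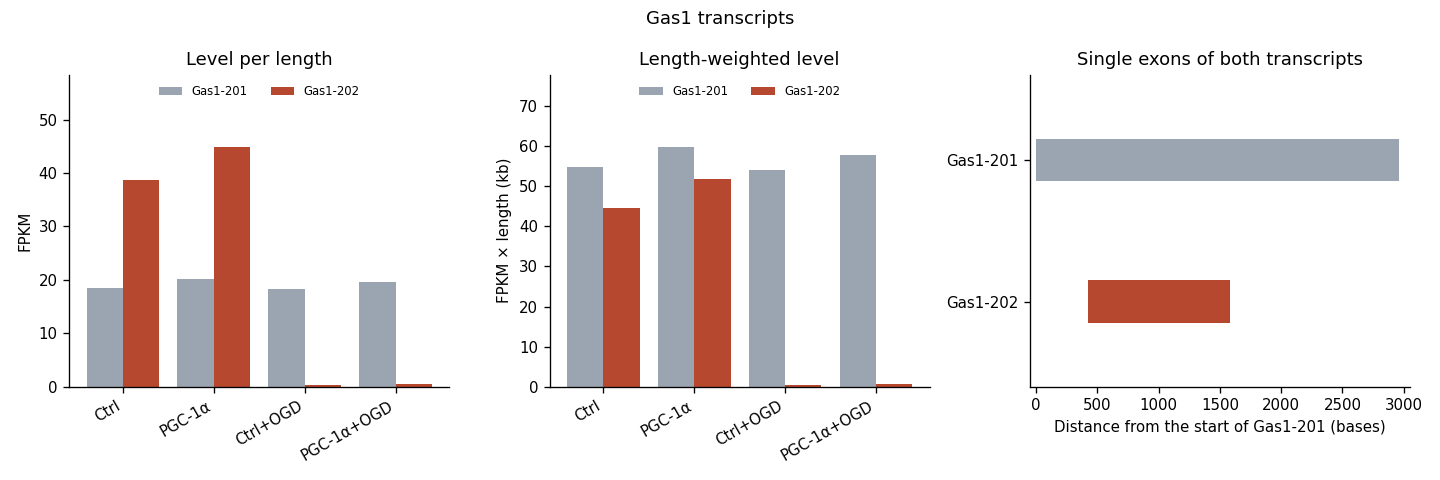
Left, FPKM, and middle, length-weighted FPKM (FPKM times length in kb) of Gas1-201 and Gas1-202 in the 4 libraries; right, the single exon of each transcript against distance from the start of Gas1-201 (bases). Gas1-201 is nearly level at 18.3 to 20.2 FPKM, while Gas1-202, which lies inside it, is at 38.7 and 44.9 FPKM without OGD and under 1 FPKM with it.

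The 3 genes whose levels followed that of Gas1 most closely over the 4 libraries were Prelp, Abca1 and Gatad2b. Likeness was the largest difference between profiles of log2(FPKM + 1) centred on their mean. Prelp, a proteoglycan of connective tissue, differed from Gas1 by at most 0.08 and had 10.5 FPKM in Ctrl, 11.9 with PGC-1α, 3.02 with OGD and 3.48 with both. Abca1, a cholesterol exporter, differed by at most 0.15 (9.87, 10.1, 2.71 and 3.24 FPKM in the same order), and Gatad2b, a subunit of the NuRD chromatin complex, by at most 0.16 (24.9, 23.1, 7.70 and 6.97 FPKM). All were lower in both libraries with OGD. With 4 points per profile this is a description, and it moves with the OGD label.

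Read against all genes, the 10 genes were not a group that changed as a whole. For PGC-1α vs Ctrl, 0 of 10 were higher and 0 of 10 lower by at least 1.5-fold, where 4.91% and 5.63% of the 10604 genes compared were. For PGC-1α+OGD vs Ctrl+OGD the counts were also 0 and 0, where 3.08% and 3.82% of all genes were higher and lower. In Ctrl+OGD vs Ctrl 1 gene, Ccnd3, was higher and 1, Gas1, was lower, where 6.2% of all genes were higher and 7.71% lower. In PGC-1α+OGD vs PGC-1α 0 were higher and 1, Gas1, was lower, where the shares of all genes were 3.82% and 5.22%. Their median log2 differences were 0.09, -0.01, -0.04 and -0.07 in these comparisons, beside -0.03, -0.01, -0.02 and 0.00 for all genes compared.

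Single transcripts crossed 1.5-fold far more often than gene sums, for these genes and for all others. Of the 23 transcripts of the 10 genes that averaged 1 FPKM or more, 9 did so in PGC-1α vs Ctrl, 4 in PGC-1α+OGD vs Ctrl+OGD, 8 in Ctrl+OGD vs Ctrl and 10 in PGC-1α+OGD vs PGC-1α. These are 39.1%, 17.4%, 34.8% and 43.5%, beside 25.4%, 22.3%, 28.1% and 25.3% of all 18301 such transcripts. Transcripts of 1 gene share its fragments and are not independent. The most abundant transcript of a gene differed between the libraries compared in 19.5%, 18.7%, 19.9% and 20.8% of the 6405 genes with 2 or more deposited transcripts, and in 2, 0, 3 and 4 of the 8 such genes here. A change of the leading transcript was therefore common in the table. This count takes in changes of any size, and exchanges as near complete as that of Ccnd3 were not counted apart.

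**Figure D4:**
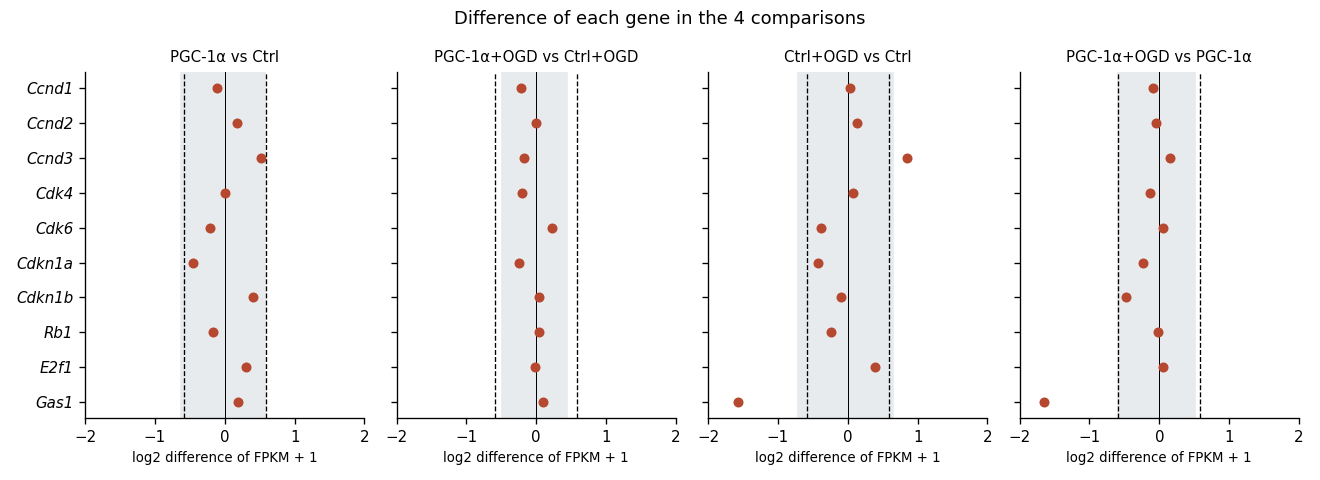
Difference of log2(FPKM + 1) of each gene in the 4 comparisons (x axis), with dashed lines at 1.5-fold and a grey band from the 5th to the 95th percentile of all 10604 genes. Gas1 lies far below the band in both comparisons of OGD, at -1.57 and -1.65, Ccnd3 lies above it in Ctrl+OGD vs Ctrl, at 0.85, and the other 8 genes lie between the dashed lines in every panel.

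The wider G1 pathway was described with 7 further lists, of which 92 genes were compared. Together 4 were higher and 7 lower in PGC-1α vs Ctrl, 2 and 1 in PGC-1α+OGD vs Ctrl+OGD, 13 and 5 in Ctrl+OGD vs Ctrl, and 6 and 2 in PGC-1α+OGD vs PGC-1α. As shares, higher and lower were 4.35% and 7.61% (all genes 4.91% and 5.63%), 2.17% and 1.09% (3.08% and 3.82%), 14.1% and 5.43% (6.2% and 7.71%), and 6.52% and 2.17% (3.82% and 5.22%) in the same order. Most of these were near or below the share of all genes, and the share higher in Ctrl+OGD vs Ctrl was the farthest above it. Of the 13 genes higher in Ctrl+OGD vs Ctrl, 7 were genes that E2F activates, a list that held 26 of the 92 genes compared. The shares of all genes given here also apply to each list below.

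Genes activated by E2F at G1/S were all 26 compared. In Ctrl+OGD vs Ctrl 7 were higher by at least 1.5-fold and 0 lower, where 6.2% of all genes were higher and 7.71% lower. There, 24 of 26 differences were above 0, and the median was 0.45, beside -0.02 for all genes. In PGC-1α+OGD vs PGC-1α 2 were higher, where 3.82% of all genes were. The median was 0.13, beside 0.00 for all genes. Mybl2, a MYB family regulator of the cell cycle, had 24.1 FPKM in Ctrl, 30.9 with PGC-1α, 43.4 with OGD and 43.2 with both. Mcm2, a subunit of the replicative helicase, had 38.7, 49.3, 63.7 and 54.2 FPKM in the same order. Ezh2, a histone methyltransferase, had 42.8, 47.2, 69.8 and 74.4 FPKM, and Ung, which removes uracil from DNA, had 9.44, 7.12, 15.8 and 12.8 FPKM. In each of these genes both libraries with OGD were above both without. In PGC-1α vs Ctrl none of the 26 reached 1.5-fold, 21 were above 0 and the median was 0.24 (all genes -0.03). In PGC-1α+OGD vs Ctrl+OGD none reached it, 7 were above 0 and the median was -0.10 (all genes -0.01).

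Of the E-type and A-type cyclins and their kinases, 9 of 10 were compared. Ccne1, which drives Cdk2 at the end of G1, had 28.3 FPKM in Ctrl, 45.9 with PGC-1α, 47.1 with OGD and 49.5 with both, and was higher in PGC-1α and in Ctrl+OGD than in Ctrl. Ctrl was again the lowest library and the other 3 lay together. Ccna2, the cyclin of S phase, had 52.6, 67.3, 83.9 and 80.3 FPKM in the same order and was higher in Ctrl+OGD than in Ctrl. Cdk7, of the kinase that activates other cyclin-dependent kinases, had 10.4, 13.3, 15.1 and 24.8 FPKM and was higher in PGC-1α+OGD than in Ctrl+OGD and PGC-1α. Cdc25a, a phosphatase that activates Cdk2, had 3.997, 6.90, 4.20 and 2.88 FPKM, the highest in PGC-1α and the lowest in PGC-1α+OGD. The list held 2 genes higher and 1 lower (Mnat1) in PGC-1α vs Ctrl, 1 and 0 in PGC-1α+OGD vs Ctrl+OGD, 2 and 0 in Ctrl+OGD vs Ctrl, and 1 and 1 in PGC-1α+OGD vs PGC-1α, with medians of 0.35, -0.04, 0.43 and 0.11.

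Among further inhibitors of the INK4 and CIP/KIP families, 3 of 5 were compared. Cdkn2d, which binds Cdk4 and Cdk6, had 8.86 FPKM in Ctrl, 15.9 with PGC-1α, 15.0003 with OGD and 14.7 with both, and was the 1 gene higher in PGC-1α vs Ctrl and in Ctrl+OGD vs Ctrl. No gene of this list passed 1.5-fold in the other comparisons, and its medians were 0.16, -0.10, 0.02 and -0.23. The other E2F, DP and pocket protein genes (10 of 11 compared) had none past 1.5-fold in any comparison, with medians of -0.03, -0.01, 0.21 and 0.14. Of the genes that degrade D-type cyclins and p27 (13 of 14 names, of which Skp1 and Skp1a name the same gene), Cks1b, a cofactor in the degradation of p27, was the 1 gene past it. It had 60.4 FPKM in Ctrl, 74.7 with PGC-1α, 112 with OGD and 88.9 with both, with a log2 difference of 0.88 for Ctrl+OGD vs Ctrl, and the list's medians were 0.02, -0.06, 0.11 and -0.01.

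The p53 pathway, of which Cdkn1a is a target, had 24 of 27 genes compared. In PGC-1α vs Ctrl 0 were higher and 5 lower (Gadd45a, Sesn2, Btg2, Bbc3 and Plk2), in PGC-1α+OGD vs Ctrl+OGD 0 and 1 (Mdm2), in Ctrl+OGD vs Ctrl 1 (Mdm2) and 5 (Gadd45a, Btg2, Bbc3, Plk2 and Fas), and in PGC-1α+OGD vs PGC-1α 2 (Mdm2 and Gadd45a) and 1 (Fas). Of all genes, 4.91% were higher and 5.63% lower in the first comparison, 3.08% and 3.82% in the second, 6.2% and 7.71% in the third, and 3.82% and 5.22% in the last. The medians of the list were -0.07, -0.03, -0.16 and -0.03, beside -0.03, -0.01, -0.02 and 0.00 for all genes compared. Gadd45a, a stress-induced growth arrest gene, had 129 FPKM in Ctrl, 47.7 with PGC-1α, 83.3 with OGD and 72.7 with both. Btg2, an antiproliferative gene, had 8.31, 3.36, 4.08 and 2.9997 FPKM in the same order, and Fas, a death receptor gene, had 9.19, 7.11, 3.86 and 2.86 FPKM. As for Cdkn1a, these genes were highest in Ctrl. Of the 24 genes compared, however, 10 had a difference above 0 in PGC-1α vs Ctrl and 9 in Ctrl+OGD vs Ctrl.

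Mdm2, which encodes the ubiquitin ligase of p53 and is also its target, went the other way, with 2.98 FPKM in Ctrl, 3.002 with PGC-1α, 12.7 with OGD and 6.08 with both. Trp53 itself had 55.1, 53.1, 72.8 and 69.5 FPKM and did not pass 1.5-fold. The targets of p53 in the list thus did not move in 1 direction.

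Of the Hedgehog receptors and transducers, 7 of 13 were compared. Ptch1, the Hedgehog receptor and a target of the pathway, had 4.43 FPKM in Ctrl, 3.94 with PGC-1α, 8.19 with OGD and 9.30 with both. It was thus high in the libraries where Gas1 was low. Smo, Sufu, Gli1 and Gli3 did not pass 1.5-fold in any comparison, and Gli1 had 2.45, 1.73, 2.55 and 2.17 FPKM in the same order. Cdon and Boc are co-receptors like Gas1. Cdon had 3.04, 5.71, 2.51 and 4.73 FPKM in the same order and was higher in both libraries with PGC-1α than in their controls, and Boc had 2.92, 1.34, 2.57 and 1.78 FPKM and was lower in PGC-1α than in Ctrl. The list had 1 gene higher and 1 lower in PGC-1α vs Ctrl and 1 higher and 0 lower in each other comparison, with medians of -0.13, -0.10, -0.08 and 0.21.

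**Figure D5:**
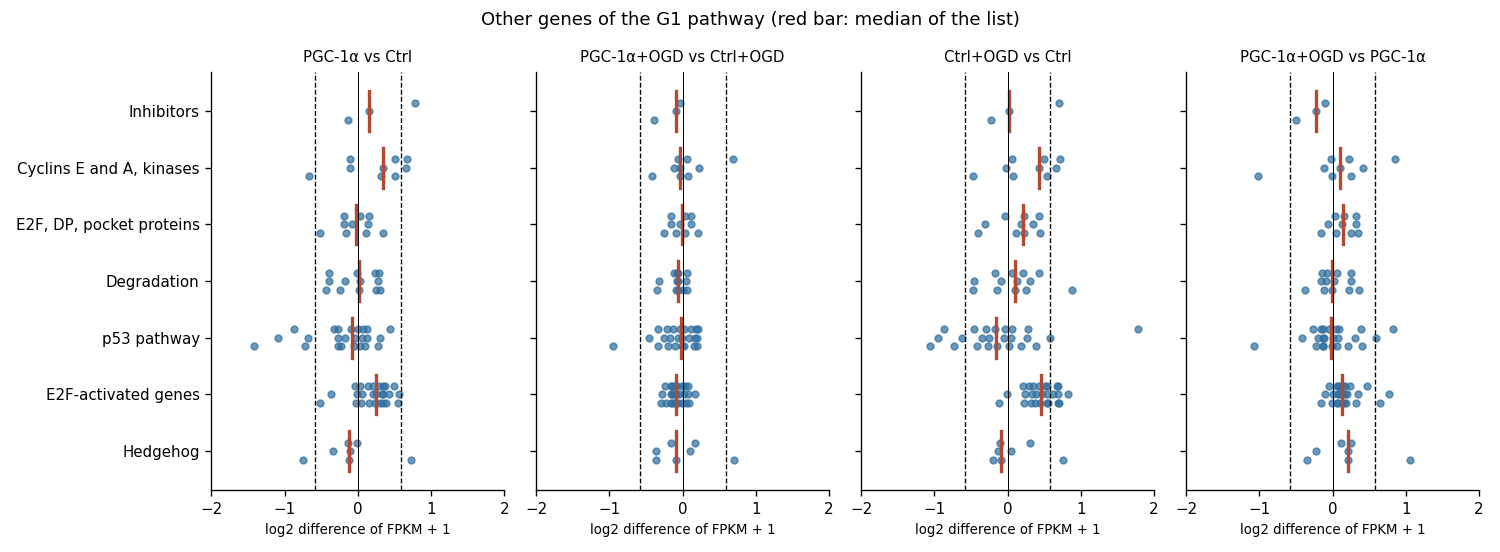
Difference of log2(FPKM + 1) of each compared gene of the 7 further lists (points) in the 4 comparisons, with the median of each list as a red bar and dashed lines at 1.5-fold. The 26 genes activated by E2F lie mostly above 0 in Ctrl+OGD vs Ctrl, with a median of 0.45, and around -0.10 in PGC-1α+OGD vs Ctrl+OGD, and the p53 list has points far out on both sides.

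The summed fibroblast and mesenchymal markers were also highest in Ctrl+OGD, at 1688 FPKM against 1228 in Ctrl, but the 7 markers did not move together. S100a4 had 316 FPKM in Ctrl and 702 in Ctrl+OGD and made up most of that difference, and Vim had 398 and 508. Pdgfra was lower, at 59.1 and 37.2 FPKM, and so, within 1.5-fold, were Pdgfrb (28.3 and 20.4), Col1a1 (175 and 169) and Col3a1 (3.17 and 2.94), while Col1a2 had 248.3 and 248.5. The part of these markers in the differences of Ccnd3, Gas1 and the E2F list was not tested. None of the 10 genes shared exon bases with another gene on its own strand. On the other strand, Ccnd3 shared 359 bases with Bysl (15.9 to 23.0 FPKM) and Cdk4 shared 641 with Tspan31 (27.2 to 31.4 FPKM). Ccnd1 shared 1100 with LTO1 (5.57 to 7.79 FPKM) and Gas1 shared 589 with Gm48488, of which no transcript was found in the table. Partners also without a transcript in the table were Gm43126 (372 bases shared with Ccnd2), Gm17590 (110 with Cdk6), Rcbtb2 (105 with Rb1) and AC167363.2 (93 with Cdkn1a). Whether strand was used in counting is not given in the sources used here, so reads of such partners cannot be told apart from those of the genes described.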

How the data were processed

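RNA-Seq of HT-22 cells covered 4 libraries, 1 per group, with groups taken from the sample labels. The authors prepared stranded poly(A) libraries, sequenced both ends and aligned reads to GRCm38 with HISAT2 2.1.0, per the submitters' processing notes and the methods. The authors deposited 1 value per Ensembl transcript, taken here as FPKM because values are never negative and column totals differ. The unit, the program behind it, the annotation and the transcript filter are not given in the sources used here. Every deposited transcript reached 0.5002 FPKM in at least 1 library. Depth is unknown, so no interval or floor is given.

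Transcripts were matched by identifier without version to GENCODE release M21 (25822 matched, 24680 with the same version, 67 left out). FPKM was summed per gene symbol, and genes or transcripts averaging 1 FPKM or more across the 4 libraries were kept and compared as differences of log2(FPKM + 1), which understates changes of low genes. The call was a fold of at least 1.5, the fold criterion of the methods without its p-value. No test was run, since 1 library per group gives no spread within a group and an additive fit of lentivirus and OGD would have only their interaction as its error. The genes, the lists, the markers and the comparisons were chosen with earlier results of these data known. Named were all 10 genes, Ppargc1a, at most 4 genes per pathway list past 1.5-fold by size of difference, and the 3 genes nearest in profile to any of the 10 with a log2 range of at least 1. Mnat1, Sesn2, Bbc3, Plk2, Trp53, Smo, Sufu, Gli1, Gli3 and the single markers were named after their values were seen. Promoters came from RefSeq tables (GRCm38.p6), which gave windows for 7 of the 10 genes. That of E2f1 lies inside its GENCODE transcript and was not used. The code (numpy 2.4.6 and pandas 2.3.3 under Python 3.11.15, figures by matplotlib 3.10.9) was tested on simulated data.

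Alternatives were pseudocounts of 0.1 and 0.01, the highest transcript per gene, no filter, a mean of at least 5 FPKM, scaling by upper quartile or median ratio, a fold of 2, and, added after the data were seen, length-weighted FPKM and CCDS transcripts only.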

Additional observations from a re-analysis of the deposited data

How the results depend on the processing

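Pseudocounts of 0.1 and 0.01, no filter and both scalings left every count for the 10 genes within 1.5 times its value, and both scalings moved the median of all genes by at most 0.03. No difference of the 10 genes changed sign where it had been called. With the highest transcript standing for a gene, 1 of the 10 genes was higher in PGC-1α vs Ctrl (E2f1, 0.77), where the sums gave 0. The same held for 1 in PGC-1α+OGD vs Ctrl+OGD (Cdkn1b, 0.61) and 1 in PGC-1α+OGD vs PGC-1α (Ccnd3, 4.81). The highest transcript was chosen by its mean over the 4 libraries. For Ccnd3 it was Ccnd3-205, while the Ccnd3 sum differed by 0.15. Uncalled differences could change sign in this reading, as for Ccnd3 in PGC-1α vs Ctrl (0.52 to -0.21) and Cdkn1b in PGC-1α+OGD vs PGC-1α (-0.48 to 0.37). Of the 10437 genes compared in this reading, 814 were higher and 971 lower in PGC-1α vs Ctrl, where the sums gave 521 and 597. In PGC-1α+OGD vs Ctrl+OGD 609 and 755 were, where the sums gave 327 and 405. In PGC-1α+OGD vs PGC-1α 779 and 911 were, where the sums gave 405 and 553. In Ctrl+OGD vs Ctrl 1001 were higher, where the sums gave 657 of the 10604 genes compared. More genes were thus called in this reading than with the sums. In the 7 lists 8 were higher and 12 lower in PGC-1α vs Ctrl, 9 lower in PGC-1α+OGD vs Ctrl+OGD, 20 higher and 9 lower in Ctrl+OGD vs Ctrl, and 11 lower in PGC-1α+OGD vs PGC-1α. With a mean of at least 5 FPKM, fewer genes were compared: 363 were lower in PGC-1α vs Ctrl, 200 higher and 233 lower in PGC-1α+OGD vs Ctrl+OGD, 489 lower in Ctrl+OGD vs Ctrl, and 263 higher and 307 lower in PGC-1α+OGD vs PGC-1α, and the lists had 2 higher, 1 higher and 1 lower in the first, second and last of these.

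At a fold of 2, Ccnd3 was no longer called in Ctrl+OGD vs Ctrl, which left 0 of the 10 genes higher. Over all genes the counts were 156 and 162, 108 and 114, 158 and 206, and 126 and 177, and in the lists 0 and 2, 0 and 0, 1 and 1, and 1 higher in the last. Of the readings added after the data were seen, both gave 1 higher gene, Ccnd3, in PGC-1α vs Ctrl. Its difference was 0.82 in length-weighted FPKM and 0.92 with CCDS transcripts only. Both readings called more genes than the sums did, with 656 and 599 of all genes higher in PGC-1α vs Ctrl against 521. Length-weighted FPKM gave 7 list genes higher in PGC-1α vs Ctrl and 2 lower in PGC-1α+OGD vs Ctrl+OGD. Over all genes 656 were higher and 516 lower in these comparisons, where the sums gave 521 and 405. CCDS transcripts gave 3 list genes lower in PGC-1α+OGD vs Ctrl+OGD and 5 lower in PGC-1α+OGD vs PGC-1α. Over all genes 513 and 684 were lower in that reading, where the sums gave 405 and 553. What caused these changes was not tested. No paired analysis was possible because every group had 1 library. An additive fit of lentivirus and OGD, which would take their interaction as its error, was not run. No library could be left out of a group of 1, and the precision of single values cannot be given because the depth is unknown.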

Other observations

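Gas1-202 was not alone in its pattern. Of 25822 matched transcripts, 14 (0.0542%) had at least 10 FPKM in both libraries without OGD and under 1 FPKM in both with it, limits that were chosen after the values were seen. The others were transcripts of Ccdc136, Cyfip1, Klhl26, Nbn, Nfib, Nnt, Pcx, Psap, Rnf26, Spp1, Srp68, Srp72 and Trps1. Of these 14 genes, Rnf26, which encodes a ubiquitin ligase of the endoplasmic reticulum, was the 1 gene with a single deposited transcript, at 14.8 FPKM in Ctrl, 21.4 with PGC-1α, 0.006 with OGD and 0.010 with both. Srp72, a subunit of the signal recognition particle, had a transcript at 51.1 and 53.8 FPKM without OGD that was listed at 0 in both libraries with OGD, while the gene summed to 73.1, 72.3, 57.6 and 48.4 FPKM. Spp1, which encodes osteopontin, had a transcript at 96.7 and 114 FPKM without OGD, at 0 in Ctrl+OGD and at 0.390 in PGC-1α+OGD, beside gene sums of 807, 906, 648 and 669 FPKM.

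The converse, at least 10 FPKM in both libraries with OGD and under 1 FPKM in both without, held for 8 transcripts (0.0310%). Ccnd3-205 missed it only through its 1.09 FPKM in Ctrl. One of the 8 belonged to Kif20a, a kinesin of cell division, with 0.023 FPKM in Ctrl, 0.025 with PGC-1α, 32.4 with OGD and 16.8 with both, in a gene that summed to 19.1, 28.98, 37.1 and 33.8 FPKM. For the lentivirus in place of OGD, 8 transcripts were high in both controls alone and 2 (0.00775%) in both PGC-1α libraries alone. Cdkn1b-203, listed at 0 in both libraries with PGC-1α, stayed below the upper limit in the controls.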
